A study of Mus musculus with 12 samples.

Results

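The 10 genes described here are 7 ligands of the tumour necrosis factor (TNF) superfamily and 3 death or TNF receptors, taken by their symbols from the 16920 genes of the count tables. The ligands were Tnf, Lta, Ltb, Tnfsf9, Tnfsf10, Tnfsf13b and Tnfsf15, and the receptors were Fas, Tnfrsf1a and Tnfrsf1b. All 10 symbols were found, and 9 of the 10 genes passed the filter on low counts and entered the test. Ltb was the exception.

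RNA-seq libraries came from primary peritoneal macrophages of C57BL/6 mice, either WT or Ythdf1-/- (KO), 6 to 10 weeks old. Cells were elicited in the peritoneum over 3 days with 6% starch broth by the series record. The study's methods name thioglycollate for the same step. All groups were kept in culture overnight. The cells then received PBS or 1 µg/mL of lipopolysaccharide (LPS), a bacterial cell wall component sensed by Toll-like receptor 4, for 6 h. This gave 4 groups of 3 libraries (WT PBS, WT LPS, KO PBS and KO LPS), which the submitters describe as independent biological replicates, and the knockout is a germline deletion and so not restricted to macrophages. YTHDF1 is a protein that binds m6A-modified mRNA.

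Most ligands of the TNF superfamily are made as trimeric membrane proteins and are in part released by proteases. TNF and lymphotoxin-alpha bind the receptors encoded by Tnfrsf1a and Tnfrsf1b. Tnfrsf1a and Fas carry a death domain and can assemble a caspase-8 complex, while Tnfrsf1b has no death domain and binds TRAF proteins. In macrophages Tnf is an immediate target of Toll-like receptor signalling, and its mRNA is held short-lived by AU-rich elements in the 3′ UTR.

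Libraries held between 21546274 and 22017005 counts, and values are given below as CPM, the share of a library's counts after TMM scaling. A level of 3 counts, used as the floor of detection, was worth 0.105 to 0.187 CPM, and this floor covers counting error alone, since the reads carry no molecular identifiers. The confidence intervals of log2 differences come from the fit and include the spread between libraries. Ythdf1 mRNA was not lost in the libraries labelled KO. It stood at 43.6, 45.0 and 41.9 CPM in WT PBS and 212, 198 and 194 CPM in WT LPS. The KO PBS libraries gave 55.4, 58.1 and 58.1 CPM and the KO LPS libraries 196, 192 and 205 CPM, so the genotype rests on the labels and the groups are called KO-labelled here. Counts for a gene do not show whether the deleted part of its mRNA is absent. All 10 macrophage markers were above the floor in every group, with a summed level of 17510 to 20850 CPM, most of it from Lyz2. Some single markers differed between labels with LPS, in both directions. Lower in KO than in WT were Mertk (98.3 against 233 CPM), Csf1r (295 against 425 CPM) and Cd5l (24.6 against 42.2 CPM). Cd14 was higher (735 against 460 CPM). Fibroblast marker sums differed with the genotype label: these genes summed to 75.1 to 88.6 CPM in WT PBS and 119 to 132 CPM in WT LPS, against 32.9 to 46.2 CPM in KO PBS and 57.0 to 69.5 CPM in KO LPS. The mesothelium sum also separated by label. It was 6.37 to 6.97 CPM in WT PBS and 6.54 to 7.29 CPM in WT LPS, against 3.26 to 4.28 CPM in KO PBS and 4.65 to 5.66 CPM in KO LPS. Wt1 made up most of the difference, with means of 3.05 and 2.835 CPM in WT with PBS and LPS against 0.996 and 1.03 CPM in KO. Msln was not lower in KO, at 1.00 and 1.255 CPM in WT against 1.01 and 1.52 CPM in KO. The mast cell sum was lower in KO than in WT with PBS (0.175 to 0.456 against 0.644 to 0.904 CPM). With LPS it was higher (2.82 to 3.56 against 1.01 to 1.42 CPM). Kit carried this sum, since 4 of its 5 genes were at or under the floor in every group. The eosinophil sum, mostly Siglecf, was lower in KO with LPS (0.995 to 1.72 against 2.43 to 2.50 CPM). Neutrophil genes, led by S100a8, summed to 5.65 to 6.94 CPM in WT PBS and 7.48 to 7.97 CPM in KO PBS. With LPS they summed to 11.9 to 14.5 CPM in WT and 13.9 to 21.9 CPM in KO. Dendritic cell genes summed to 0.787 to 1.27 and 0.770 to 0.992 CPM with PBS, and 2.34 to 3.33 and 2.86 to 3.67 CPM with LPS, in WT and KO. Skeletal muscle genes summed to 17.2 to 33.6 CPM over the 6 WT libraries, to 0.319 to 19.6 CPM in KO PBS and to at most 0.684 CPM in KO LPS, and they split by library within KO PBS. Acta1 gave 260 to 312 counts in the 6 WT libraries and 202 and 272 in KO PBS replicates 1 and 2, but 1 in KO PBS replicate 3 and 1 to 3 in KO LPS. The part of these marker lists in the results below was not tested. Without KO PBS replicate 3, 8 of 9 tested members were called with LPS in each label, where 76.0% of all genes passed in WT and 77.2% in KO. Between labels 2 were called with PBS (20.7% of all genes) and 4 with LPS (39.8%), and 2 passed the interaction (14.4%). The KO LPS libraries, where muscle genes were also near absent, stayed in that fit. Replicate 1 of WT LPS stood apart from the other two, with a mean chi-square per gene of 30.5 and 23.7 against them, where the other two gave 2.95 against each other. In KO LPS, replicates 2 and 3 gave 15.3 against each other, and replicate 1 gave 6.87 and 5.43 against them. In bulk RNA, fewer cells of a type and less RNA per cell cannot be told apart.

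Tnf, Lta and Ltb lie side by side on chromosome 17 and their RefSeq promoters are shown because the genes' levels differed so widely. In GRCm38, Tnf occupies chr17:35199367-35202007 on the minus strand, Lta chr17:35203165-35205578 on the minus strand and Ltb chr17:35194507-35196305 on the plus strand. The gap between Ltb and Tnf is 3061 bases and the gap between Tnf and Lta is 1157 bases. The 250 bases before a RefSeq start (GRCm38.p6) are given 5′ to 3′ in the direction of transcription. Capitals mark a TATAAA in Tnf and Lta and a match to the κB consensus in Ltb. The Lta start used here lies inside the span of the gene given above, so most of its window is within that span.
Tnf, chr17:35202008-35202257, minus strand: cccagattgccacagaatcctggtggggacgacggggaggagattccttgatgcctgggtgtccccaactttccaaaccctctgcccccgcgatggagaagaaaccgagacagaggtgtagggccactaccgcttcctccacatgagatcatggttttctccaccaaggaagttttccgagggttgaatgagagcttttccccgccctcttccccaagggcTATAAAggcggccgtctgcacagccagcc
Lta, chr17:35205352-35205601, minus strand: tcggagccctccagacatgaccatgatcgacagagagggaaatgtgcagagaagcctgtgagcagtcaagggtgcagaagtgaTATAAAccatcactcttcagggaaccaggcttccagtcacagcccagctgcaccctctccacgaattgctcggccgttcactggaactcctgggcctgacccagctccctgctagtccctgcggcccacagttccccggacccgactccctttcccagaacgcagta
Ltb, chr17:35194257-35194506, plus strand: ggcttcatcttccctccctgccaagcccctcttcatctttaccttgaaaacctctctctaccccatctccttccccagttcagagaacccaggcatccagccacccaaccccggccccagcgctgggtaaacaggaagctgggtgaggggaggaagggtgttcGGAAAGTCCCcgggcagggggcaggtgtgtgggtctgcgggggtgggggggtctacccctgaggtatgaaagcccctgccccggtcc

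In Tnf the TATAAA spans bases -29 to -24 from the start. In Lta it spans bases -167 to -162 from the start used, which is within the span of the gene. The κB match of Ltb lies at -87 to -78 and reads as the consensus on the opposite strand. Searched on both strands in the same 250 bases of 32536 RefSeq starts, TATAAA was present in 12.3% and the κB consensus in 3.92%. TGANTCA, the AP-1 motif, was present in 6.73% and the interferon response element in 2.98%. Of the 9 members with a promoter entry, Fas held TGANTCA at -211 to -205. Tnfrsf1b held the interferon response element at -10 to -1 on the opposite strand. The downstream start of Tnfsf13b held TGANTCA at -127 to -121 and the interferon response element at -16 to -7. None of the 4 motifs was found in this window of Tnfsf10, Tnfsf15 or Tnfrsf1a. A match is a run of letters and no evidence of binding.

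The mRNAs also differed in their AU-rich elements. The nonamer UUAUUUAUU, the core of the element bound by tristetraprolin (Zfp36), occurred 5 times in the 764 bases of the Tnf 3′ UTR, overlapping each other between bases 438 and 468 after the stop codon. It occurred once in Lta and once in Tnfsf13b, and in none of the other 7 members. The longest GENCODE 3′ UTR of each gene was used. Among 11798 tested genes with such a 3′ UTR, 8.14% held the nonamer and 0.687% held it 3 or more times. The 30 bases that hold the first 4 whole nonamers of Tnf, and those that end with the nonamer of Lta and Tnfsf13b, are shown with the nonamers in capitals.
Tnf, bases 438 to 467 after the stop codon: UUAUUUAUUAUUUAUUUAUUAUUUAUUUAU
Lta, bases 302 to 331 after the stop codon: uuuauggagagaaaaguuaagUUAUUUAUU
Tnfsf13b, bases 1622 to 1651 after the stop codon: cuguucauuucauuggcccauUUAUUUAUU

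In WT macrophages LPS raised 8 of the 9 tested members and lowered none. Over all 12064 genes tested, 76.7% passed at an adjusted p below 0.05 in WT, 36.5% higher and 40.2% lower with LPS. Among the 7 of these whose PBS levels were above the floor, the ligands Tnfsf15, Tnfsf10 and Tnf had the steepest rises, and the receptors rose by less. Lta was under the floor with PBS, so its rise is a lower bound and has no place in that order. Lta and Tnfsf15 had fewer than 10 counts in at least 1 library, and of the 7 members with 10 or more in every library 6 were higher in each label. Of all genes with 10 or more in every library, 78.7% passed in WT and 81.9% in KO. The KO-labelled libraries gave the same count, 8 of 9 higher, where 79.9% of all genes passed, 38.8% higher and 41.1% lower. In these 8 genes every LPS library of a label lay above every PBS library of that label, a separation in either direction that 78.2% of all genes showed in WT and 81.3% in KO. Other scalings moved the balance of all calls, of which 47.6% were higher in WT by TMM, 32.5% by upper quartile and 21.2% by library totals, while 8 members were higher under each. The LPS comparisons used edgeR's quasi-likelihood test with Benjamini-Hochberg adjustment over all genes tested, as did every adjusted p below.

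**Figure D1:**
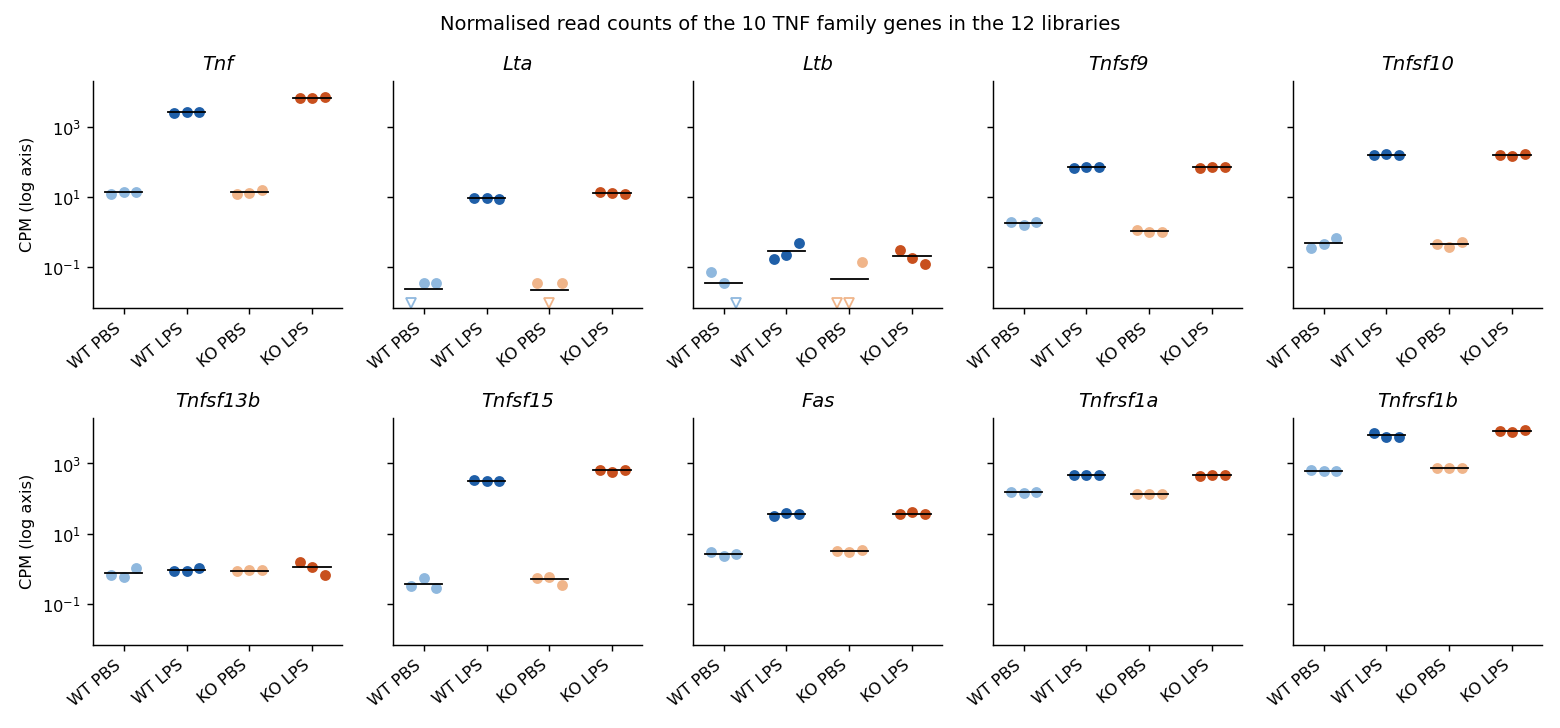
Normalised read counts (CPM, log axis) of the 10 genes in each of the 12 libraries, with 1 point per library, a bar at the mean of 3 and an open triangle at the foot of the panel for a library with 0 counts. In 8 panels the LPS libraries of both genotype labels sit above all PBS libraries, and in Tnf and Tnfsf15 the KO LPS libraries sit above the WT LPS libraries.

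Tnf, the founding ligand of the family, stood at 12.6, 14.2 and 13.9 CPM in WT PBS and at 2482, 2568 and 2704 CPM in WT LPS. In the KO-labelled libraries it stood at 12.1, 12.9 and 15.9 CPM with PBS and at 6548, 6544 and 6837 CPM with LPS. The PBS libraries of both labels overlapped, and every KO LPS library lay above every WT LPS library. Mean levels rose 191-fold in WT, from 13.6 ± 0.876 to 2585 ± 112 CPM (SD, n = 3), and 488-fold in KO, from 13.6 ± 1.99 to 6643 ± 168 CPM. The fitted log2 rises were 7.57 ± 0.101 (SE, adjusted p = 1.03e-18) in WT and 8.93 ± 0.107 (adjusted p = 2.34e-19) in KO. Tnf took 0.195% to 0.218% of all counts of a WT LPS library and 0.495% to 0.509% of a KO LPS library. By the size of its fitted rise in WT it ranked 78 of the 12064 genes.

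Lta encodes lymphotoxin-alpha, a soluble ligand of the TNF receptors and a partner of lymphotoxin-beta at the cell surface. It gave 0, 1 and 1 counts in WT PBS and 1, 0 and 1 in KO PBS, all under the floor. With LPS it gave 165, 163 and 154 counts in WT (9.54, 9.28 and 8.69 CPM) and 231, 210 and 195 counts in KO (14.2, 12.9 and 12.1 CPM). Set against the floor of 3 counts per library, Lta was at least 84.5-fold higher with LPS in WT and at least 123-fold higher in KO. It passed the filter on low counts through its LPS libraries, so its call with LPS is a description and its p is not given.

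Ltb, which encodes the membrane anchor of the lymphotoxin heterotrimer, stayed near the floor. Its counts were 2, 1 and 0 in WT PBS, 3, 4 and 9 in WT LPS, 0, 0 and 4 in KO PBS, and 5, 3 and 2 in KO LPS. It did not pass the filter on low counts, and when the filter was left out it was called higher with LPS in WT. Its neighbour Tnf averaged 2585 CPM in WT LPS. Because lymphocytes make lymphotoxin, their markers are set beside these values. Cd3d, Cd3e and Cd3g, which define T cells, gave 0 to 2 counts in every library, and the B cell genes Cd79a and Ms4a1 gave 0 to 6. Other genes of these lists were detected with PBS, where Cd4 gave 27 to 53 counts, Cd8a 16 to 33 and Cd79b 25 to 45. With LPS the mean level of Cd8a was 0.704 CPM in WT and 0.740 CPM in KO, near its PBS means of 0.801 and 0.891 CPM. That of Cd4 was 0.914 and 0.452 CPM, from 1.78 and 1.11 CPM, and that of Cd79b was 0.209 and 0.246 CPM, from 1.39 and 1.21 CPM. The 10 measured T cell genes summed to 378 to 390 CPM in WT PBS, 148 to 170 CPM in WT LPS, 430.0 to 467 CPM in KO PBS and 239 to 246 CPM in KO LPS, most of it from Il7r. The 8 measured B cell genes summed to 111 to 116 CPM in WT PBS, 74.3 to 90.5 CPM in WT LPS, 102 to 104 CPM in KO PBS and 48.0 to 53.4 CPM in KO LPS, led by Cd22. All 7 measured NK cell genes were at or under the floor in every group. Lck, a kinase of the T cell list, gave 145 to 228 counts in WT LPS and 59 to 69 in KO LPS, a direction opposite to that of Lta between the labels. Il7r ran in the same direction as Lta there, with means of 236 CPM in KO LPS and 147 CPM in WT LPS, and the part of lymphocytes in the Lta values was not tested.

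**Figure D2:**
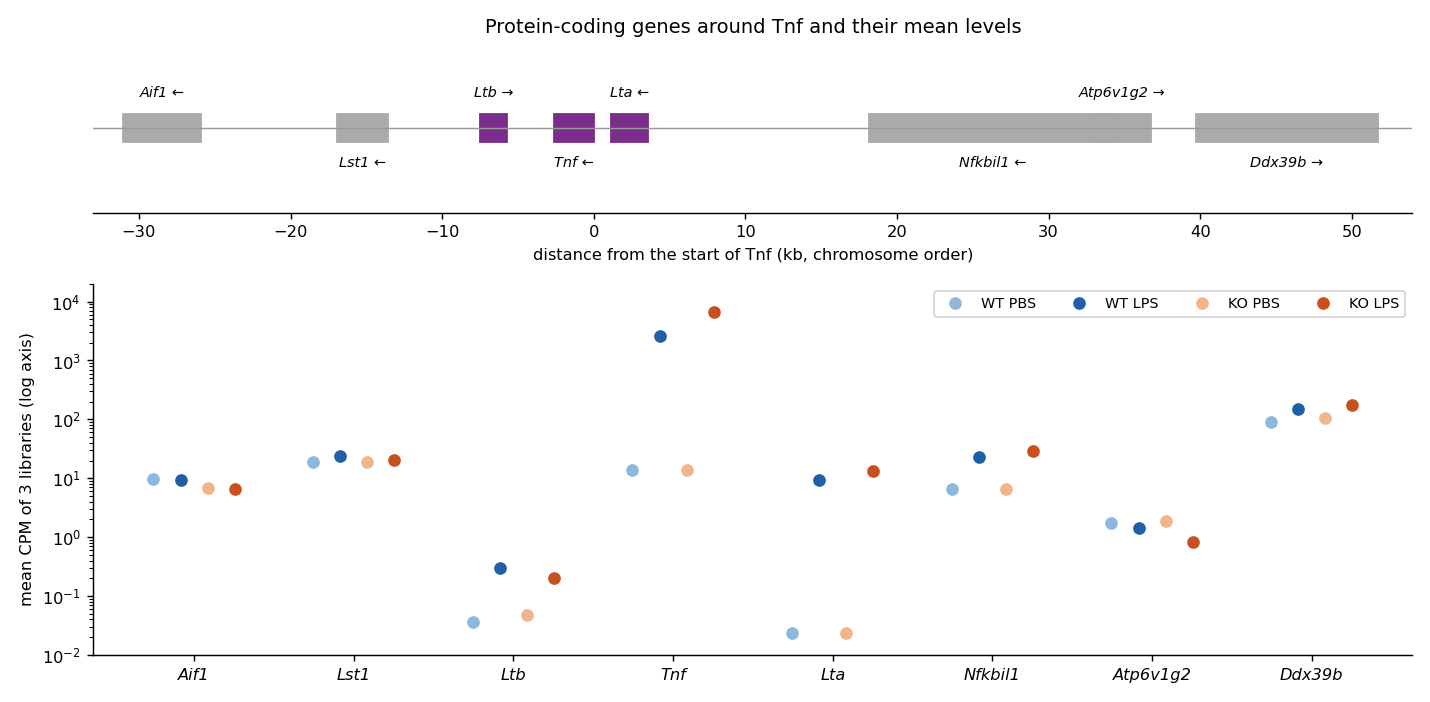
Protein-coding genes around Tnf drawn to scale by distance from the Tnf start in kb, with arrows for the strand and the 3 members in purple, above the mean CPM of 3 libraries per group on a log axis. Tnf and Lta rise with LPS in both labels, Ltb stays under 1 CPM, and Aif1 and Lst1 show no rise of that size.

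The genes that flank the 3 ligands moved far less. Nfkbil1, next to Lta, averaged 6.47 CPM in WT PBS, 22.8 CPM in WT LPS, 6.60 CPM in KO PBS and 28.9 CPM in KO LPS. Lst1, on the other side beyond Ltb, averaged 19.0, 23.6, 18.7 and 20.3 CPM in the same order of groups, and Aif1 averaged 9.70, 9.17, 6.80 and 6.55 CPM. Ddx39b averaged 91.8, 151, 105 and 177 CPM, and none of these 4 neighbours rose by as much as Tnf or Lta.

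Tnfsf9, on another segment of chromosome 17 (chr17:57105287-57107758, plus strand), encodes the ligand of the costimulatory receptor Tnfrsf9. It stood at 1.99, 1.65 and 1.93 CPM in WT PBS and 1.16, 1.02 and 1.03 CPM in KO PBS, from 55, 46 and 54 against 33, 29 and 29 counts. With LPS it reached 65.8, 73.7 and 72.9 CPM in WT and 69.2, 73.6 and 71.1 CPM in KO. The labels were separated with PBS and mixed with LPS. The rise was 38.2-fold in WT (log2 5.25 ± 0.0892, adjusted p = 7.49e-18) and 66.9-fold in KO (log2 6.06 ± 0.0969, adjusted p = 3.05e-18).

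Tnfsf10 (chr3:27317077-27339665, plus strand) encodes TRAIL, a ligand of death receptors. Its level was 0.362, 0.465 and 0.679 CPM in WT PBS and 0.455, 0.386 and 0.531 CPM in KO PBS. With LPS it was 160.1, 166 and 159 CPM in WT and 161, 147 and 165 CPM in KO, so the labels overlapped under both treatments. Mean levels rose 322-fold in WT (log2 8.32 ± 0.117, adjusted p = 1.50e-18) and 345-fold in KO (log2 8.41 ± 0.119, adjusted p = 7.77e-19).

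Tnfsf15 (chr4:63724600-63745059, minus strand) encodes TL1A, the ligand of the death-domain receptor Tnfrsf25. It gave 0.325, 0.537 and 0.286 CPM in WT PBS and 0.560, 0.597 and 0.354 CPM in KO PBS. With LPS it gave 329, 315 and 317 CPM in WT and 673, 587 and 668 CPM in KO, with no overlap between the labels. The rise was the steepest of the members above the floor with PBS, 837-fold in WT (log2 9.69 ± 0.132, adjusted p = 1.14e-18) and 1277-fold in KO (log2 10.30 ± 0.128, adjusted p = 3.12e-19), and ranked 29 of the 12064 genes in WT. Tnfsf15 overlaps the long non-coding RNA gene Gm42294 and Tnfsf9 overlaps Gm11110. Whether the counting used strand is not given in the sources used here, so reads of such overlapping pairs may not be told apart.

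Tnfsf13b (chr8:10006229-10036000, plus strand) encodes BAFF, a survival factor for B cells, and was the tested member that LPS did not move past the threshold. Its counts were 19, 17 and 29 in WT PBS, 15, 15 and 19 in WT LPS, 25, 26 and 26 in KO PBS, and 26, 18 and 11 in KO LPS. The groups overlapped, at means of 0.777, 0.931, 0.903 and 1.13 CPM. The log2 differences with LPS were 0.26 in WT (adjusted p = 0.454) and 0.32 in KO (adjusted p = 0.327), and their sign depended on the scaling.

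Fas (chr19:34290647-34327775, plus strand) encodes a death receptor. It stood at 3.04, 2.29 and 2.72 CPM in WT PBS and at 31.2, 39.1 and 36.3 CPM in WT LPS. Its KO-labelled libraries gave 3.29, 2.98 and 3.37 CPM with PBS and 35.8, 41.6 and 35.5 CPM with LPS. LPS separated the libraries fully within each label, and the labels overlapped within each treatment. The rise was 13.3-fold in WT (log2 3.73 ± 0.118, adjusted p = 1.66e-14) and 11.7-fold in KO (log2 3.55 ± 0.114, adjusted p = 1.84e-14).

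Tnfrsf1a (chr6:125349723-125362483, plus strand), which encodes the TNF receptor with a death domain, had the smallest rise among the 8. It stood at 151, 149 and 150.5 CPM in WT PBS and 476, 474 and 457 CPM in WT LPS. In KO it stood at 137.5, 135 and 139.5 CPM with PBS and 450.0, 465 and 471 CPM with LPS. The rise was 3.13-fold in WT (log2 1.65 ± 0.0496, adjusted p = 8.49e-15) and 3.36-fold in KO (log2 1.75 ± 0.0498, adjusted p = 3.32e-15). Its size depended on the processing, with a lowest log2 rise over the alternatives of 0.98 in WT and 0.95 in KO.

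Tnfrsf1b (chr4:145212368-145246870, minus strand), which encodes the TNF receptor without a death domain, was abundant before LPS and rose further. It stood at 633, 607 and 617 CPM in WT PBS and 744, 749 and 761 CPM in KO PBS. With LPS it stood at 7370, 5616 and 5791 CPM in WT and 8324, 7844 and 8777 CPM in KO. The highest WT LPS value was that of replicate 1, the library that stood apart, and it still lay below every KO LPS library. The rise was 10.1-fold in WT (log2 3.34 ± 0.0896, adjusted p = 1.85e-15) and 11.1-fold in KO (log2 3.47 ± 0.0901, adjusted p = 1.01e-15).

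Levels can be compared between genes only per length, here as CPM per kb of merged GENCODE exons, which makes genes with many isoforms look longer than their main mRNA. In WT PBS the receptors led, with Tnfrsf1b at 162 and Tnfrsf1a at 57.9 CPM per kb, ahead of Tnf at 8.27. Tnfsf9 (1.28 to 1.54 CPM per kb) and Fas (1.11 to 1.47) overlapped, as did Tnfsf15, Tnfsf13b and Tnfsf10 at 0.114, 0.113 and 0.0953. In WT LPS Tnf reached the level of Tnfrsf1b, with ranges over libraries of 1514 to 1650 and 1471 to 1930 CPM per kb. Tnfrsf1a followed at 181, Tnfsf15 at 95.7, Tnfsf9 at 54.9, Tnfsf10 at 30.7, Fas at 17.2 and Lta at 6.63 CPM per kb, each clear of the next. In KO LPS the level of Tnf (3993 to 4172 CPM per kb) exceeded that of Tnfrsf1b (2055 to 2299) in every library. Tnfsf15 (175.5 to 201 CPM per kb) there overlapped Tnfrsf1a (174 to 182).

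**Figure D3:**
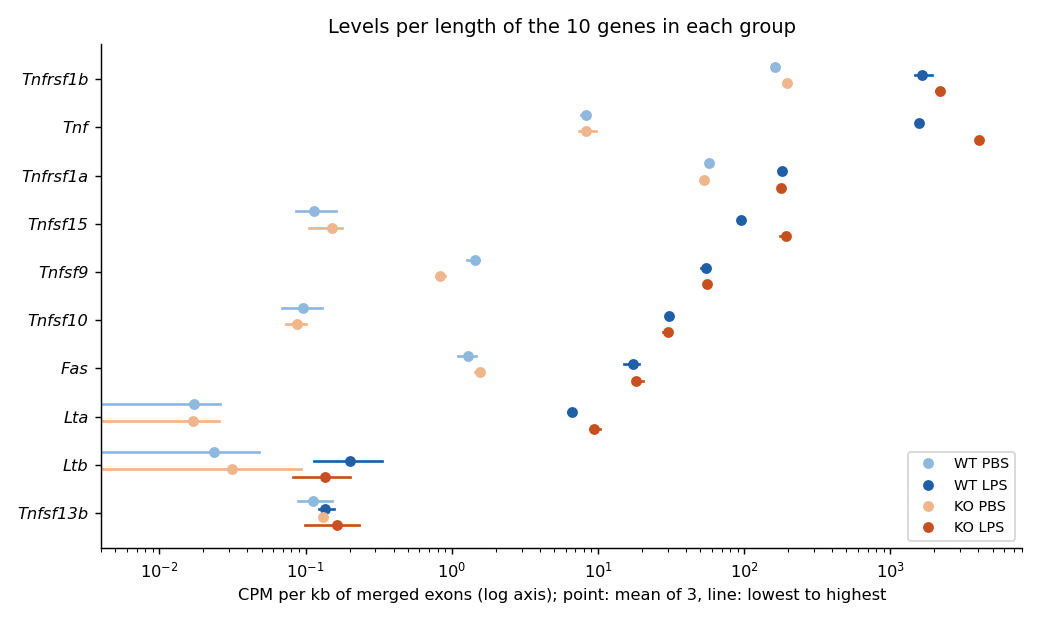
Level per length (CPM per kb of merged exons, log axis) of the 10 genes, ordered by their mean in WT LPS, with a point at the mean of 3 libraries and a line from the lowest to the highest. With PBS the receptors Tnfrsf1b and Tnfrsf1a lie above all ligands, and with LPS Tnf lies level with Tnfrsf1b in WT and above it in KO.

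Known binding partners of the members were measured in the same cells. Ltbr, the lymphotoxin-beta receptor, averaged 87.6 CPM in WT PBS, 99.6 CPM in WT LPS, 80.0 CPM in KO PBS and 97.1 CPM in KO LPS. Its small increase with LPS passed the test in WT (log2 0.19, adjusted p = 0.00681) and in KO (log2 0.28, adjusted p = 0.000256), but the direction depended on the scaling: the same differences were -0.12 and -0.08 under upper-quartile scaling and -0.48 and -0.52 under library totals. Tnfrsf14, which binds lymphotoxin-alpha, rose from 13.9 to 109.0 CPM in WT and from 14.3 to 99.1 CPM in KO. Tnfrsf10b, the mouse death receptor for TRAIL, rose from 2.02 to 4.27 CPM in WT and from 1.91 to 4.91 CPM in KO. Tnfrsf23, a decoy receptor for TRAIL, fell from 17.5 to 10.5 CPM in WT and from 14.6 to 7.65 CPM in KO. Tnfrsf13b, a receptor for BAFF, fell from 31.3 to 15.8 CPM in WT and from 37.3 to 20.7 CPM in KO. Tnfrsf9 was under the floor with PBS and reached a mean of 0.625 CPM with LPS in WT and of 0.760 CPM with LPS in KO. Fasl, the ligand of Fas, gave 0 counts in 11 libraries and 1 count in replicate 3 of KO LPS. Tnfrsf25, the receptor for Tnfsf15, gave 0 to 4 counts and Tnfrsf13c, the main BAFF receptor, 0 to 3 counts per library.

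With PBS alone, the genotype label moved 2 of the 9 tested members, where 25.3% of all genes passed in either direction. Tnfsf9 was lower in the KO-labelled libraries, at 1.07 ± 0.0766 against 1.86 ± 0.184 CPM (SD, n = 3), a log2 difference of -0.79 ± 0.149 (SE, adjusted p = 0.00102). Tnfrsf1b was higher, at 752 ± 8.69 against 619 ± 13.1 CPM (log2 0.28 ± 0.0822, adjusted p = 0.0204). That call was lost without WT PBS replicate 2 (adjusted p = 0.0720) or replicate 3 (adjusted p = 0.0651), while the log2 difference stayed at 0.27 and 0.28. The 3 libraries of each label were free of overlap for both genes, as they were for 48.1% of all genes.

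Tnfrsf1a was also free of overlap with PBS, at 137 ± 2.16 CPM in KO against 150.0 ± 0.995 CPM in WT. Its log2 difference of -0.13 did not pass (adjusted p = 0.0697), and it passed with adjusted p = 0.0343 in DESeq2. Tnf did not differ measurably, with a log2 difference of 0.01 and a 95% confidence interval of -0.18 to 0.20. The log2 differences of Tnfsf10 (-0.13), Tnfsf13b (0.21), Tnfsf15 (0.39) and Fas (0.26) did not pass either. Lta was under the floor in both groups and Ltb was not tested.

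With LPS, 4 of the 9 tested members were higher in the KO-labelled libraries and none was lower. Of all genes tested, 41.4% passed in this comparison, 22.1% higher and 19.3% lower. By upper quartile 41.6% of all calls were higher and by library totals 37.9%, against 53.4% by TMM, and 4 members were higher under each. The 4 genes were the ligands Tnf, Tnfsf15 and Lta and the receptor Tnfrsf1b. In each of the 4, the lowest KO LPS library exceeded the highest WT LPS library, a separation in either direction that 45.6% of all genes showed.

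Tnf averaged 6643 ± 168 CPM in KO LPS and 2585 ± 112 CPM in WT LPS (SD, n = 3), which is 2.57-fold higher (log2 1.36 ± 0.0754, adjusted p = 2.31e-09). By the size of this increase Tnf ranked 124 of the 12064 genes. Over the 20 alternative analyses the log2 difference ranged from 1.27 to 1.40. The mRNA with 5 nonamers shown above is that of this gene, and the counts do not separate synthesis from decay of the mRNA.

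Tnfsf15 averaged 643 ± 48.2 CPM in KO LPS and 320.3 ± 7.89 CPM in WT LPS, 2.01-fold higher (log2 1.01 ± 0.0721, adjusted p = 4.10e-08), and ranked 250. Lta averaged 13.05 ± 1.04 against 9.17 ± 0.439 CPM, 1.42-fold higher (log2 0.51 ± 0.108, adjusted p = 0.00128). Tnfrsf1b averaged 8315 ± 466 against 6259 ± 966 CPM, 1.33-fold higher (log2 0.41 ± 0.0819, adjusted p = 0.000823). Without WT LPS replicate 1 the log2 difference of Tnfrsf1b was 0.54.

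**Figure D4:**
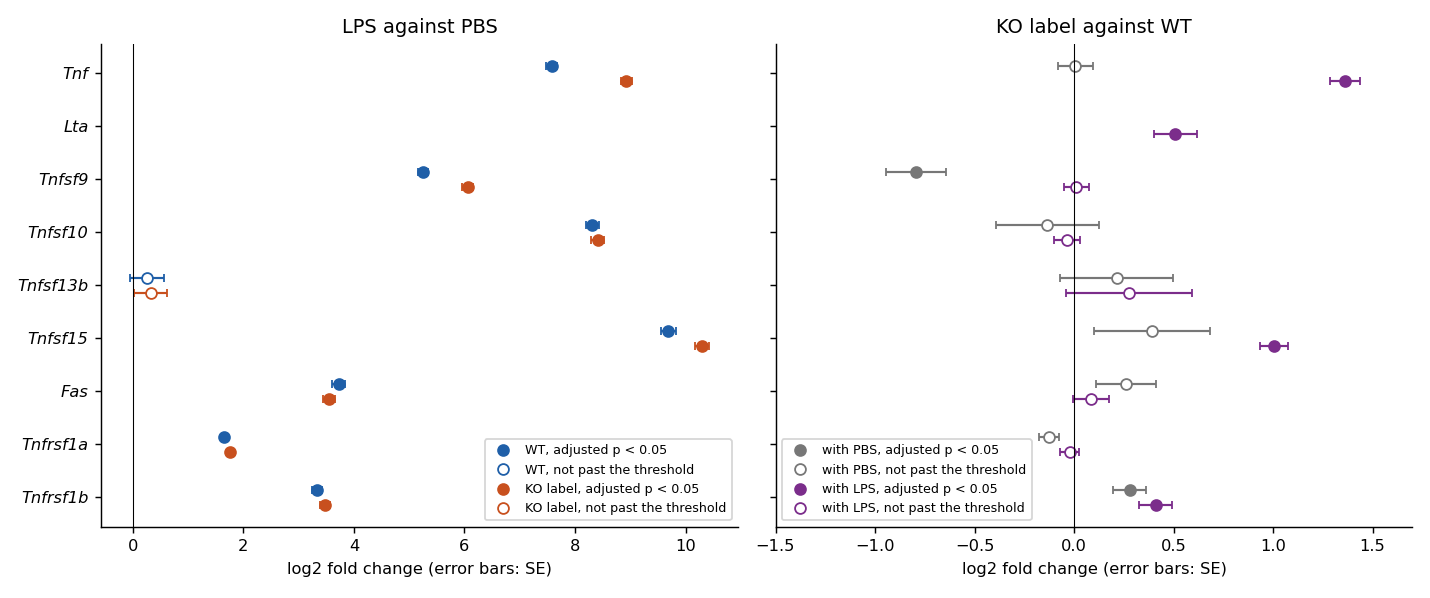
Fitted log2 fold changes with their SE for the tested members, for LPS against PBS within each label (left) and for the KO label against WT within each treatment (right), with filled points past the adjusted p threshold of 0.05. Lta is drawn only for the labels with LPS, since its PBS libraries are under the floor, and Tnf and Tnfsf15 lie furthest to the right in the comparison of labels with LPS.

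The other 5 tested members did not pass between labels with LPS, and their intervals were as follows. The 95% confidence interval of the log2 difference ran from -0.12 to 0.14 for Tnfsf9. It ran from -0.18 to 0.11 for Tnfsf10 and from -0.11 to 0.28 for Fas. For Tnfrsf1a it ran from -0.12 to 0.08, the narrowest of the members. For Tnfsf13b it ran from -0.40 to 0.95, so a difference of moderate size was not detectable at its depth.

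The response to LPS itself was then compared between the labels as an interaction, which 2 of the 9 tested members passed. Of all genes 18.0% passed, 9.78% with a larger and 8.26% with a smaller log2 response in the KO-labelled libraries. For Tnf the LPS response was larger in the KO-labelled libraries by 1.36 ± 0.117 on the log2 scale (SE, adjusted p = 1.54e-06). For Tnfsf9 it was larger by 0.80 ± 0.161 (adjusted p = 0.00267). The 2 genes arrived there differently: Tnf had like PBS levels and unlike LPS levels, and Tnfsf9 had unlike PBS levels and like LPS levels. Tnfsf15 gave 0.61 (adjusted p = 0.214) with a 95% confidence interval of -0.04 to 1.27, which its low PBS counts leave wide. Tnfrsf1b gave 0.13 (adjusted p = 0.496), and 0.27 (adjusted p = 0.00866) without WT LPS replicate 1. The values of Fas (-0.18), Tnfrsf1a (0.10), Tnfsf10 (0.10) and Tnfsf13b (0.06) did not pass. Leaving out that library gave 3 members past the interaction test, where 21.9% of all genes then passed, and 4 of 9 past the comparison with LPS, where 41.0% passed. For Lta no interaction could be measured from PBS groups under the floor.

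The further genes of the TNF pathway were described by lists of other ligands, other receptors, receptor complexes, shedding enzymes and proteins that bind Tnf mRNA. Of all genes, 36.5% were higher and 40.2% lower with LPS in WT, and the counts of these lists in that comparison stand against those shares. The receptor complex list had 20 of 26 genes higher and 4 lower, with a median log2 change of 0.95 against -0.05 over all genes. Tnfaip3, the ubiquitin-editing inhibitor A20, rose from 63.4 to 1348 CPM (log2 4.41 ± 0.0784, adjusted p = 1.25e-17). Mlkl, the executor of necroptosis, rose from 18.9 to 290.7 CPM. Scaled by library totals alone, which lowered the median of all genes by 0.66 on the log2 scale, 14 of the 26 were higher and 11 lower, where 2223 of the 12064 genes were higher and 8247 lower.

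Among the other receptors with LPS in WT, 9 of the 17 tested of 25 listed were higher and 6 lower, where 76.7% of all genes passed. Of the 9, Tnfrsf8, Tnfrsf9 and Tnfrsf11b gave 0 to 7 counts per WT PBS library and entered the test through their LPS libraries, so these 3 are a description. Upper-quartile scaling turned the count to 7 higher and 8 lower, where 3146 of all genes were higher and 6520 lower. Cd40, a costimulatory receptor, rose from 7.52 to 1478 CPM (log2 7.62 ± 0.103, adjusted p = 1.14e-18) and in WT Tnfrsf8 (CD30) was at 0.239 CPM without LPS and 6.09 CPM with it. Of the 11 other ligands, 5 were tested, of which 2 were higher with LPS and 2 fell. Both that were higher, Tnfsf4 and Tnfsf8, gave 0 to 3 counts per WT PBS library and entered the test through their LPS libraries, so they too are a description. Tnfsf4 (OX40 ligand) averaged 9.61 CPM in WT LPS. Tnfsf12 (TWEAK) fell from 297.7 to 127.7 CPM and Tnfsf13 (APRIL) from 59.0 to 39.9 CPM.

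All 6 shedding genes passed with LPS in WT, 5 higher and 1 lower, where 76.7% of all genes passed. Adam17, the protease that releases TNF from the membrane, rose from 162 to 341 CPM (log2 1.07 ± 0.0633, adjusted p = 8.81e-11). Rhbdf2, which carries Adam17 to the cell surface, rose from 47.8 to 611 CPM, and Adam10 fell from 157.0 to 87.1 CPM. Of the 10 genes for proteins that bind Tnf mRNA, 6 rose and 4 fell, against 36.5% higher and 40.2% lower over all genes. Zc3h12a, an endonuclease of inflammatory mRNAs, rose from 16.2 to 447 CPM and Zfp36, which encodes tristetraprolin, from 131 to 1485 CPM, while Zfp36l2 fell from 295.9 to 53.5 CPM. Under library totals alone the shedding list counted 3 higher and 1 lower, and the mRNA binding list counted 3 higher and 4 lower, against the 2223 higher and 8247 lower of all 12064 genes.

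Between labels with LPS, the receptor complex list had 14 of 26 genes higher, 1 lower and 11 not past the threshold, with a median log2 difference of 0.22 against 0.000586 over all genes. Of all genes 22.1% were higher and 19.3% lower. Tnfaip3 was higher in the KO-labelled libraries (2155 against 1348 CPM, log2 0.68 ± 0.0677, adjusted p = 1.37e-06), as was Ikbkg (NEMO, the regulatory subunit of the IκB kinase) at 72.4 against 49.0 CPM. Ripk3, the necroptosis kinase, was lower, at 13.2 against 19.2 CPM (log2 -0.54, adjusted p = 0.000234).

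The mRNA binding list had 8 of 10 genes higher and none lower in the same comparison, against 22.1% and 19.3% of all genes, with a median of 0.38. Its members oppose or favour the stability of Tnf mRNA, and those with the largest differences were Zfp36l1 (35.6 against 21.9 CPM), Rc3h2 (36.0 against 23.3 CPM) and Rc3h1 (72.2 against 49.6 CPM), which are all known to promote decay. Their log2 differences were 0.70, 0.63 and 0.54. With PBS, where 12.3% of all genes were higher and 13.0% lower, 5 of the 10 were higher and none lower. The receptor complex list had 3 of 26 higher and 3 lower with PBS, a share near that of all genes. It had 8 higher and 4 lower without WT LPS replicate 1, where 31.8% of all genes passed. By library totals it had 8 higher and 3 lower with PBS, where 1991 of all genes were higher and 1241 lower. Under upper-quartile scaling or library totals, 6 of the 10 mRNA binding genes were higher with LPS and none lower. Of the 12064 genes, 2077 were then higher and 2921 lower by upper quartile, and 1919 higher and 3150 lower by library totals.

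Without WT LPS replicate 1, the counts higher between labels with LPS were 13 of 26 receptor complex genes and 8 of 10 mRNA binding genes, where 2763 of the 12233 genes tested were higher and 2258 lower.

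In the remaining lists, 2 genes each passed between labels with LPS, where 41.4% of all genes passed. Of the 17 other receptors, Tnfrsf13b was higher (20.7 against 15.8 CPM, log2 0.40, adjusted p = 0.00103) and Tnfrsf23, a decoy receptor for TRAIL, lower (7.65 against 10.5 CPM, log2 -0.45, adjusted p = 0.00365). Of the 5 other ligands, Tnfsf4 was lower (6.74 against 9.61 CPM, log2 -0.51, adjusted p = 0.0130) and Tnfsf12 was lower (92.7 against 127.7 CPM, log2 -0.46, adjusted p = 2.52e-05). Of the 6 shedding genes, Adam17 was higher (396 against 341 CPM, log2 0.21, adjusted p = 0.0114) and Frmd8, a stabiliser of the iRhom proteins, lower (64.6 against 76.0 CPM, log2 -0.23, adjusted p = 0.0114). Adam17 was not called under library totals, where 0 of the 6 shedding genes were higher.

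**Figure D5:**
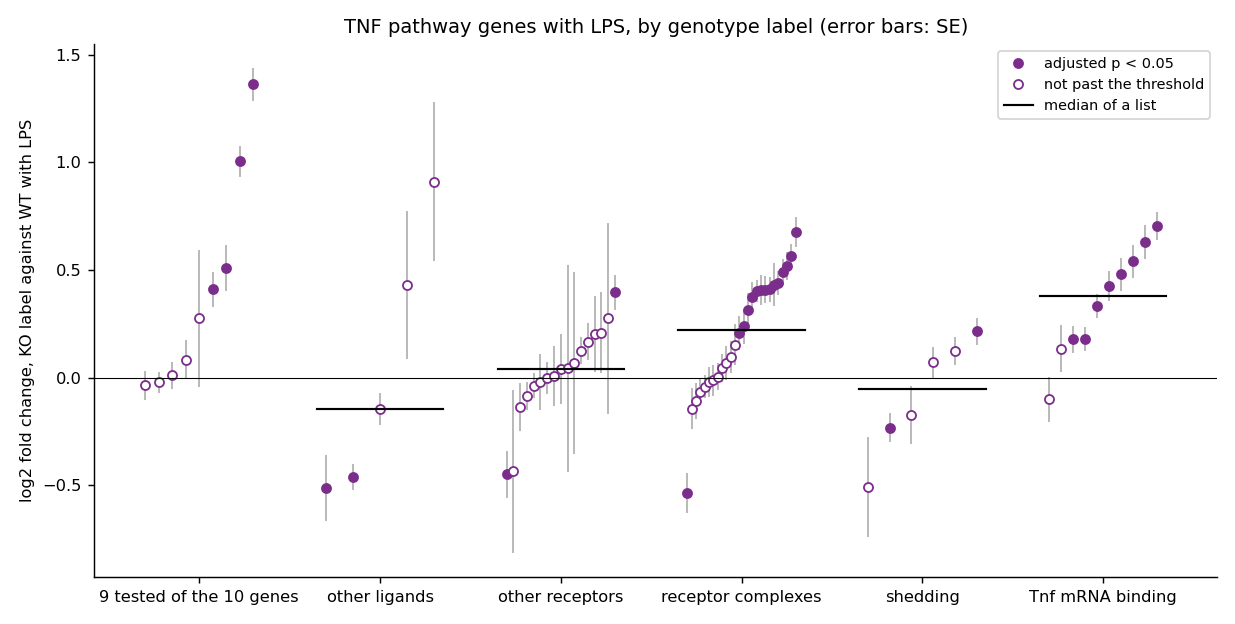
Log2 difference between KO-labelled and WT libraries with LPS for each tested gene of the pathway lists, sorted within a list, with SE as error bars, filled points past the adjusted p threshold of 0.05 and a bar at the median of each of the 5 lists. The mRNA binding list lies highest of the lists, with a median of 0.38, and Tnf and Tnfsf15 lie above every gene of the other lists that passed.

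For Tnf, Tnfsf15 and Fas, the genes with the most similar pattern were sought by the root mean square difference of log2(CPM + 0.5), centred over the 12 libraries, among 9319 genes. The nearest to Tnf were Il12a (0.129), Hdc (0.236) and Fpr1 (0.349). With LPS the mean level of Il12a was 94.7 CPM in WT and 300.4 CPM in KO. The PBS means of Il12a in both labels and of Hdc in KO lay below the floor. The added 0.5 CPM then sets how large their rise is on this scale, and the likeness of that rise to Tnf or Tnfsf15 was not measured. The nearest to Tnfsf15 were Tarm1 (0.313), Hdc (0.323) and Ifit1 (0.403), and the nearest to Fas were Zfp811 (0.116), Pttg1 (0.141) and Kpna3 (0.142). Zfp811 was also under the floor with PBS in both labels, so its likeness to Fas in the rise was not measured either. All points share the same libraries, so these distances describe the 12 libraries and nothing more.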

How the data were processed

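RNA was sequenced on a BGISEQ-500 (SE50). The authors deposited expected counts per gene, 1 table per library, without normalization. The submitters' processing notes name Bowtie2, RSEM 1.3.1 and GRCm38.p6, whereas the study's methods name STAR and HTSeq. Between 24.6% and 26.9% of values carried decimals. Among the members, Tnfsf10 and Tnfsf15 carried them in all 12 libraries and Tnfrsf1b in 11, so their reads were partly shared out by the estimate. Library depth was 21546274 to 22017005 counts.

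Counts were rounded to whole numbers and tested with edgeR 4.0.16 (R 4.3.3): filterByExpr, TMM, a robust quasi-likelihood fit with 1 mean per group over the 12 libraries, two-sided, and Benjamini-Hochberg adjustment over 12064 genes at 0.05. The common biological coefficient of variation was 6.99%. The 5 contrasts share control libraries, so they are not independent. The script was tested on simulated counts. Alternatives were RLE, upper-quartile and library-total scaling, 2 other filters, DESeq2 1.42.0, a replicate block, a fit of only the libraries compared, and leaving out each library. The replicate p-values measure the spread between libraries described as biological replicates.

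Members and gene lists were chosen with earlier results of these data known. All 10 members were named. Of the pathway lists, the binding partners of members were named, with the 3 called genes of largest log2 change per list in LPS against PBS in WT and in KO against WT with LPS, at 5 CPM or more in the higher group. For Tnf, Tnfsf15 and Fas, the 3 genes most alike in pattern were named. Some genes that these rules name are not reported here. Gene numbers matched RefSeq (GRCm38.p6) for 16803 of 16920 genes (99.3%). Tnfsf9 was the member without a promoter entry.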

Additional observations from a re-analysis of the deposited data

Results flagged for a closer look

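For 2 members the labels differed in their response to LPS itself, as tested by the interaction. For Tnf the log2 response was larger in the KO-labelled libraries by 1.36 (edgeR, adjusted p = 1.54e-06), and it ranged from 1.22 to 1.45 over the alternatives. For Tnfsf9 it was larger by 0.80 (adjusted p = 0.00267), with a range of 0.67 to 0.88. All 3 KO LPS libraries lay above all 3 WT LPS libraries for Tnf, while for Tnfsf9 the separation lay in the PBS libraries, which gave 29 to 33 counts in KO and 46 to 55 in WT. Fibroblast and mesothelium marker sums also differed between the labels, the latter mostly through Wt1. Skeletal muscle genes were near absent from KO PBS replicate 3 and the KO LPS libraries. Their part in these responses was not tested.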

How the results depend on the processing

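Of 880 values of 45 member comparisons under 20 alternatives, 841 kept their direction and their side of the threshold, 6 moved past it, 2 no longer passed and 31 changed sign, none of them a called value. The count of members higher or lower with LPS was 8 in WT and 8 in KO (8 to 8 when any 1 library was left out, 6 to 9 over all alternatives). Between labels it was 2 with PBS (1 to 3 when any 1 library was left out, with 1 without WT PBS replicate 2 or 3), 4 with LPS (4 to 4) and 2 for the interaction (2 to 3). The share of all genes passing with PBS moved too. It was 25.3% in the main fit, 18.4% and 18.0% without WT PBS replicate 2 or 3, and 31.8% without WT LPS replicate 1. With at least 10 counts required in every library, 2 of 7 tested members passed with LPS between labels, where 45.9% of 10091 genes passed. Tnfsf15 and Lta were then not tested. The WT LPS count of 9 came without a filter, when Ltb was tested and 56.1% of 16860 genes passed. Tnfrsf1b with PBS no longer passed without WT PBS replicate 2 or 3 (0.27 and 0.28). Tnfrsf1a with PBS passed by upper quartile (-0.15, adjusted p = 0.0354), with at least 10 counts in every library (-0.13, adjusted p = 0.0497), in DESeq2 (-0.11, adjusted p = 0.0343), with only the libraries compared (-0.13, adjusted p = 0.00939) and without WT LPS replicate 1 (-0.13, adjusted p = 0.0282). Upper-quartile scaling lowered the median log2 change of all genes with LPS by 0.31 in WT and 0.36 in KO. Library totals lowered it by 0.66 in WT and 0.80 in KO, and the 8 increases kept their direction. In the fit with a replicate block the counts were 8, 8, 2, 4 and 2 in the order above and the interaction of Tnf was 1.36. Correlations of same-numbered libraries ran from -0.192 to 0.201, so the numbers were not taken as pairs, and the block changed no call of a member. Of the pathway lists it moved the receptor complex genes higher in KO from 14 to 13 with LPS and from 3 to 2 with PBS, and the other receptors with PBS from 2 higher and 4 lower to 1 and 5.

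Signs changed as follows, and the cause was not tested. By upper quartile: Tnfsf13b with LPS, -0.0488 in WT and -0.0334 in KO, and between labels Tnf with PBS, -0.0153, and Tnfsf9 with LPS, -0.0587. By library totals: Tnfsf13b with LPS, -0.40 in WT and -0.48 in KO, Lta with PBS between labels, 0.0164, with LPS between labels Tnfsf9, -0.0801, and Fas, -0.00695, and the interactions of Tnfsf10, -0.0397, Tnfsf13b, -0.0761, Tnfrsf1a, -0.0333, and Tnfrsf1b, -0.00602. Tnfsf9 with LPS between labels was -0.00593 with at least 10 counts in every library and -0.00443 with only the libraries compared. When any 1 library was left out, the values between labels with PBS ran from -0.0951 to 0.114 for Tnf, from -0.48 to 0.49 for Lta and from -0.29 to 0.14 for Tnfsf10. With LPS they ran from -0.0391 to 0.0399 for Tnfsf9, from -0.0676 to 0.0127 for Tnfsf10, from -0.0590 to 0.53 for Tnfsf13b and from -0.00131 to 0.16 for Fas. The LPS change of Tnfsf13b in KO ran from -0.0132 to 0.58, and the interactions ran from -0.18 to 0.25 for Tnfsf10 and from -0.27 to 0.32 for Tnfsf13b. Depth limits Ltb, Tnfsf13b and the PBS levels of Lta, Tnfsf10 and Tnfsf15, which rest on few counts.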
